A study of Mus musculus with 2 samples.

Results

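Serpins are a superfamily of proteins that share one fold, and most of them inhibit proteases. A serpin offers an exposed reactive centre loop as bait; once a protease cuts the loop, the serpin changes shape and traps the enzyme in a covalent complex. The liver makes most serpins of the plasma, which restrain clotting, fibrinolysis, complement and leukocyte proteases, while clade B serpins lack a classical secretion signal and mostly act inside cells. A few members inhibit nothing and serve as hormone carriers or chaperones. The genes described here are all those whose array name starts with Serpin, a clade letter from a to i and a digit, among the non-control probes of an Agilent mouse expression array. The rule found 59 genes of 31894 on the array, read by 75 probes of 39423. By clade letter, 22 genes belonged to clade A, 26 to clade B, 3 to clade E, 2 each to clades F and I, and 1 each to clades C, D, G and H.

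The arrays measured total RNA of liver sinusoidal endothelial cells (LSEC). These cells form the porous wall of the liver's capillaries. The groups were LSEC of a male ob/ob mouse, obese because its leptin gene is mutated, and LSEC of a male wild-type (WT) mouse, both 8 weeks old. Cells of both genotypes were released with collagenase and kept overnight in medium with serum before RNA was taken. Each genotype had 1 array, both on 1 slide and scanned together, so every difference below compares 1 array with 1 array, no test could be run, and the precision is limited by the number of arrays.

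Values called signal are the processed intensity of a probe, which does not scale the arrays to each other. Differences are on the log2 scale, ob/ob minus WT, after each array was divided by its own 75th percentile, which was a signal of 1430 on the ob/ob array and 989 on the WT array. A gene with equal signals on both arrays therefore has a difference below 0. A gene counted as measured where the scanner software called its probe well above background, and as higher or lower where the difference was at least 2-fold, or 1 on the log2 scale. Probes differ in how strongly they respond, so the signals of different genes are not ranked. The scanner's error model gave the Serpin differences an SD of 0.20 to 0.33, and the SD between probes of one gene was 0.33 over 3688 genes. Neither figure holds the spread between mice or cell preparations.

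The cells on both arrays carried endothelial RNA, and markers of other liver cells differed between them. All 12 endothelial markers were measured on both arrays and none differed 2-fold, with a median difference of -0.14 and a summed scaled signal of 117 in ob/ob and 144 in WT. Of 11 hepatocyte markers 10 were higher in ob/ob, with a median difference of 2.83 and a summed scaled signal of 25.9 in ob/ob against 3.93 in WT. Albumin (Alb) had a signal of 19700 in ob/ob and 1536 in WT, Ahsg 6990 and 1270, and the fibrinogen gene Fgb 4540 and 545. Of 12 macrophage markers 10 were higher, with a median of 1.62 and a summed scaled signal of 151 in ob/ob against 56.6 in WT. Of 12 markers of stellate cells and fibroblasts, 9 of the 10 seen on both arrays were higher, with a median of 2.05 and a summed scaled signal of 36.3 in ob/ob against 8.94 in WT. All 3 cholangiocyte markers measured on both arrays were higher, and the other 4 of the 7 passed background in ob/ob alone, with sums of 5.52 in ob/ob and 0.545 in WT. Of 10 neutrophil markers, 4 were seen on both arrays (0 higher and 2 lower, Elane and Mpo), 3 passed background in ob/ob alone and 1 in WT alone, with sums of 0.553 in ob/ob and 0.647 in WT. The 3 were Mmp8, S100a9 and S100a8, at least 9.30-fold, 5.77-fold and 2.77-fold higher in ob/ob. Of 9 lymphocyte markers, 2 were seen on both arrays, within 2-fold, and Gzmb, Cd3d and Cd3g passed background in ob/ob alone, at least 8.80-fold, 6.44-fold and 2.01-fold higher, with sums of 0.647 in ob/ob and 0.462 in WT. Mesothelial markers summed to 0.283 in ob/ob and 0.178 in WT. None of the neutrophil markers Cxcr2 and Ngp, the lymphocyte markers Cd79a, Ms4a1 and Klrb1c, or the mesothelial markers Msln, Upk3b and Wt1 was measured on either array. The summed scaled signal adds the signals of a list after division by the array's 75th percentile. More cells of a type and more RNA per cell cannot be told apart in such samples, and the part of these marker differences in the Serpin values below was not tested.

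Some Serpin genes arose by recent duplication, and their probes read nearly the same sequence. Of 2775 pairs of member probes, 15 matched at 35 bases or more of their 60, and 12 of these pairs joined different genes, 13 genes in all. The probes of Serpina1a, Serpina1c and Serpina1e, genes of the alpha-1-antitrypsin group, are shown because they decide whether 3 results or 1 were measured. The stretches are taken from the array's probe list, each 30 bases, with capitals at the letters in which the Serpina1c or Serpina1e probe differs from the Serpina1a probe.
Serpina1a: taaAaTgtcatccttccttctgaattgggt
Serpina1c: taaGatgtcatccttccttctgaattgggt
Serpina1e: taaGaAgtcatccttccttctgaattgggt
Counted from the 5′ end of the Serpina1a probe, Serpina1c differs by A4G and Serpina1e by A4G and T6A within these stretches. Over their whole overlap the Serpina1a and Serpina1c probes matched at 50 of 51 bases, and the Serpina1a and Serpina1e probes at 39 of 50. The clade B genes Serpinb6a, Serpinb6c and Serpinb6e show the same feature, here with capitals in the Serpinb6a line wherever either of the others differs.
Serpinb6a: gaccttatccataaGtGCaatgGcaATtat
Serpinb6c: gaccttatccataagtgcaatgAcaGCtat
Serpinb6e: gaccttatccataaAtATaatgAcaGttat
From the 5′ end of the Serpinb6a probe, Serpinb6c differs by G27A, A30G and T31C, and Serpinb6e by G19A, G21A, C22T, G27A and A30G within these stretches. Over their whole overlap the Serpinb6a probe matched the brighter Serpinb6c probe at 39 of 42 bases and the other at 55 of 59. It matched the Serpinb6e probe at 43 of 55. The Serpinb6c letters are the same in both of that gene's probes. The Serpina1e probe matched that of Serpina1c at 49 of 59 bases, and the Serpinb6e probe the brighter Serpinb6c probe at 41 of 47. Values of Serpina1a and Serpina1c, and of Serpinb6a and Serpinb6c, are therefore uncertain as values of single genes. Those of Serpina1e and Serpinb6e are uncertain in the same way, to a degree that was not tested.

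Across the family, both arrays measured 33 of the 59 genes, where 56.9% of all genes were so measured. By their brightest probe, 2 Serpin genes passed background in ob/ob alone (6.85% of all genes did) and 2 in WT alone (0.865% of all genes), and 22 passed it on neither array. Of the 33, 18 were at least 2-fold higher in ob/ob and 1 was at least 2-fold lower, while 14 lay within 2-fold. That is 54.5% higher and 3.03% lower, beside a background of 5.83% of all 18143 genes measured on both arrays for higher calls and 2.29% for lower calls. The median Serpin difference was 1.31, and that of all genes -0.12. Unscaled signals were brighter on the ob/ob array for 30 of the 33, but that array was also the brighter one, with a 75th percentile of 1430 against 989. The same count over all genes was not made, so the 30 are not read as a trait of the family. With another background correction (normexp on the mean spot signals, scaled on the 75th percentile) the split was 13 higher and 7 lower, beside 2.03% of all genes higher and 21.0% lower under that correction, and the family median was 0.50. With quantile normalization in place of that scaling the split was 15 higher and 0 lower, and the family median was 0.80. Of all genes 2.81% were then higher and 0.717% lower.

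**Figure D1:**
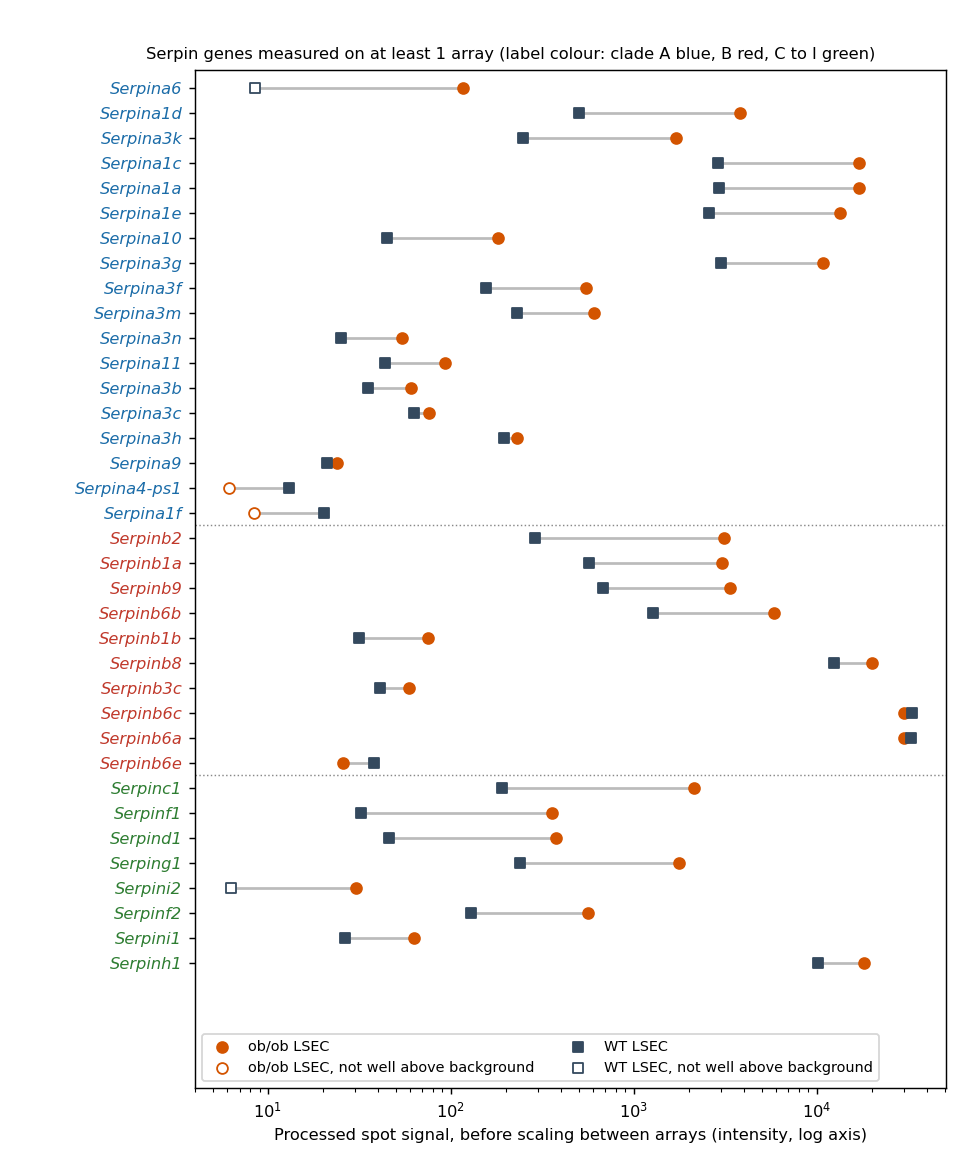
Processed signal of 36 Serpin genes measured on at least 1 array, on a log axis before scaling between arrays, with ob/ob LSEC as orange circles and WT LSEC as dark squares. Open symbols mark a gene not well above background on that array. The 3 genes measured on both arrays whose circle lies left of the square are Serpinb6a, Serpinb6c and Serpinb6e.

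All 6 measured inhibitors of clotting and fibrinolysis were higher in ob/ob, with a median difference of 2.10. Serpinc1 (antithrombin, the main plasma inhibitor of thrombin and factor Xa, probe at chr1:162932565-162932624 on mm9, plus strand) had a signal of 2130 in ob/ob and 191 in WT, a difference of 2.95 ± 0.21 (error-model SD) or 7.71-fold. Serpind1 (heparin cofactor II, a thrombin inhibitor, chr16:17343544-17343603) had 376 in ob/ob and 46.2 in WT, a difference of 2.49. Serpina10, which inhibits factor Xa together with protein Z, had 181 and 44.9, a difference of 1.48. The other background correction turned the direction of Serpina10, to -0.35, and left Serpind1 at 0.58, below 2-fold.

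Among the inhibitors that restrain the dissolving of clots, Serpinf2 (alpha-2-antiplasmin, the plasmin inhibitor) had 564 in ob/ob and 129 in WT, a difference of 1.59. For Serpinf2 the other background correction gave 0.61, or 0.95 with quantile normalization. Serpinb2 (which inhibits urokinase and is known from macrophages and other stimulated cells, chr1:109422046-109422105) had 3100 in ob/ob and 287 in WT, a difference of 2.90 or 7.46-fold. Serpinb2 thus had one of the widest gaps between the arrays in the family. Serpina5 (protein C inhibitor) and Serpine2 (protease nexin 1) belong to this group and stayed near background on both arrays.

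The proteases that these inhibitors act on gave mixed values. Among clotting and contact proteases, 5 of the 7 seen on both arrays were higher and 0 lower, with a median of 2.10. Prothrombin (F2) had a signal of 2460 in ob/ob and 215 in WT, a difference of 2.99, and protein C (Proc) 561 and 90.5, a difference of 2.10, while factor X (F10) had 133000 in ob/ob and 131239 in WT, a difference of -0.51. Of the 4 fibrinolytic genes 2 were higher: tissue plasminogen activator (Plat) had 181 in ob/ob and 41.5 in WT, a difference of 1.59, whereas urokinase (Plau) had 1270 and 467, a difference of 0.91, and its receptor Plaur 27900 and 21067, a difference of -0.13. Of 7 cofactors and clearance receptors 3 were higher and 1 lower, with a median of -0.31. Procr, the endothelial protein C receptor, had 60600 in ob/ob and 67293 in WT, a difference of -0.68. Thbd (thrombomodulin) had 28900 and 24835, a difference of -0.31.

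The Serpina1 group encodes alpha-1-antitrypsin, the chief plasma inhibitor of neutrophil elastase, which mice carry in several copies. Both arrays measured 4 of the 5 genes of the group that the rule found, and all 4 were higher in ob/ob by 1.84 to 2.39. No probe under the rule was named for a further copy, Serpina1b. Serpina1a (chr12:105091819-105091878, minus strand) had a signal of 17000 in ob/ob and 2908 in WT, Serpina1c 17100 and 2902, and Serpina1e 13400 and 2593. Their differences were 2.01, 2.03 and 1.84, measured by the probes of which stretches are printed above. Those of Serpina1a and Serpina1c are near identical, and that of Serpina1e matches the Serpina1a probe at 39 of 50 bases and the Serpina1c probe at 49 of 59. Serpina1d had 3810 in ob/ob and 503 in WT, a difference of 2.39, and its other probe 1010 and 120, a difference of 2.55.

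Serpina1a and Serpina1e also have a second probe each, which lies at another position of the gene. Both are shown in full, 5′ to 3′, with capitals for the longest stretch they share, 17 bases.
Serpina1a, chr12:105091979-105092038: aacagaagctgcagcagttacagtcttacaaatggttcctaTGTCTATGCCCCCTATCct
Serpina1e, chr12:105185290-105185349: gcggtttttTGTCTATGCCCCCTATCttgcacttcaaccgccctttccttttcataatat
The Serpina1a probe had a signal of 2350 in ob/ob and 330 in WT, a difference of 2.30. That of Serpina1e had 2940 in ob/ob and 671 in WT, a difference of 1.60. By these probes as well, both genes were at least 2-fold higher in ob/ob. The probes were compared with each other and not with the transcripts of the other copies. Whether they read single copies was therefore not tested.

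Serpina1f departed from its neighbours, being measured on the WT array only. It had a signal of 8.42 in ob/ob, not well above background there, and 20.2 in WT, so it was at least 2.50-fold lower in ob/ob, at a level close to the dimmest measured signals (11.7 on the ob/ob array and 12.3 on the WT array).

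The Serpina3 group, which mice expanded from the gene for alpha-1-antichymotrypsin, was divided. Of 9 genes 8 were measured on both arrays, and 3 of them were higher. Serpina3k, a kallikrein-binding protein of plasma, had a signal of 1710 in ob/ob and 249 in WT, a difference of 2.25. Serpina3g, known in mouse leukocytes as an inhibitor of cysteine cathepsins, had 10800 in ob/ob and 3006 in WT, a difference of 1.31, and Serpina3f had 549 and 156, a difference of 1.29. The other background correction left Serpina3f at 0.50, or at 0.80 with quantile normalization. The other 5 lay within 2-fold. Serpina3m had 609 in ob/ob and 230 in WT, a difference of 0.87, and Serpina3n, which in mouse inhibits granzyme B, 54.2 and 25.0, a difference of 0.58. Serpina3b had 60.2 in ob/ob and 35.3 in WT (0.24), Serpina3c 76.3 and 62.8 (-0.25), and Serpina3h 230 and 196 (-0.30), with the log2 difference in brackets. Differences between genes as close in position as these ranged over more than 2 log2 units. For Serpina3n and Serpina3b the other background correction gave -1.22 and -1.23. Serpina3a was measured on neither array.

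**Figure D2:**
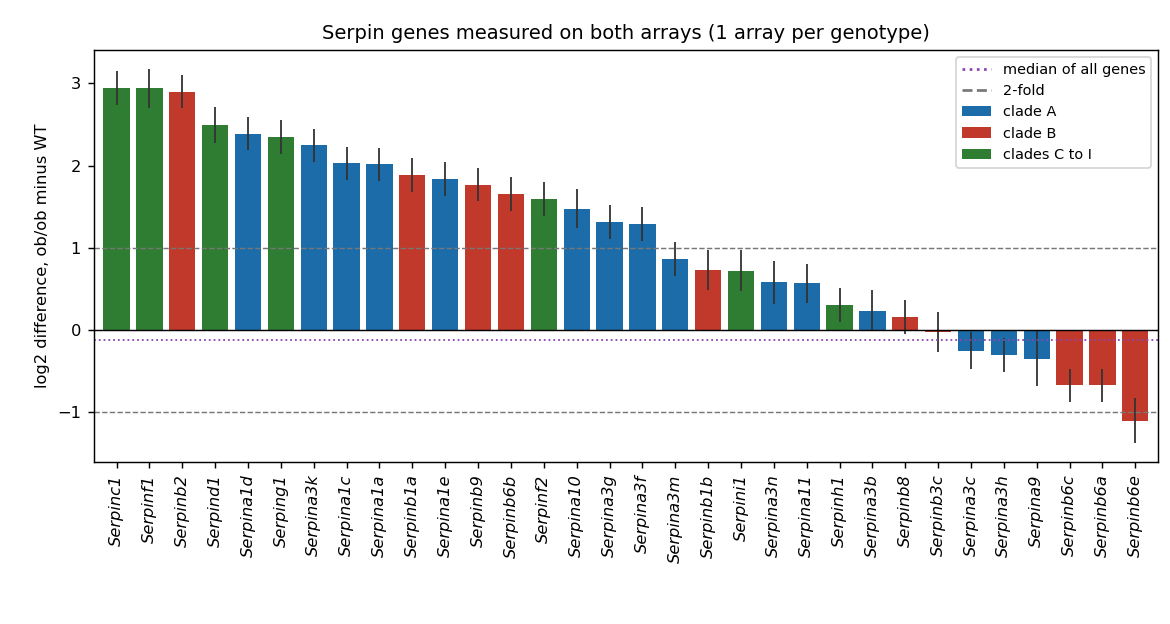
Log2 difference, ob/ob minus WT, of 32 Serpin genes measured on both arrays, with the error-model SD of a single array pair as error bars and colours by clade. Of the 32 bars 17 pass the upper 2-fold line and that of Serpinb6e passes the lower one, and the dotted line at -0.12 is the median of all genes.

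Of the other clade A members, Serpina11 had 93.3 in ob/ob and 43.4 in WT, a difference of 0.57. With the other background correction the Serpina11 difference was -0.95. Serpina9 (centerin, known from germinal centre B cells) had 23.9 in ob/ob and 21.0 in WT, a difference of -0.34 ± 0.33 (error-model SD). Serpina4-ps1, a pseudogene related to kallistatin, was measured on the WT array only, with a signal of 6.14 in ob/ob and 13.1 in WT, at least 1.62-fold lower in ob/ob. Its other probe, which matches the first at 51 of 52 bases, did not pass background on either array, with 2.48 in ob/ob and 2.65 in WT. Serpina12 (vaspin, an adipokine) was measured on neither array.

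The hormone carrier Serpina6 (transcortin, which binds glucocorticoids in plasma) was read differently by its 2 probes. By the brighter probe it had a signal of 116 in ob/ob and 8.49 in WT, not well above background there, which makes it at least 6.50-fold higher in ob/ob. By the other it had 16.5 in ob/ob and 24.3 in WT, measured on both, a difference of -1.09. No direction is given for Serpina6 for that reason. Serpina7 (thyroxine-binding globulin), the clade A gene on chromosome X, was measured on neither array. Agt (angiotensinogen), a non-inhibitory serpin without the family's symbol and outside the rule, had 48.5 in ob/ob and 6.89 in WT, not well above background there, at least 2.72-fold higher in ob/ob.

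Serping1 (C1 inhibitor, which blocks C1r, C1s and plasma kallikrein, chr2:84605663-84605722, minus strand) had a signal of 1760 in ob/ob and 239 in WT, a difference of 2.35 ± 0.21 (error-model SD). Its other probe had 615 in ob/ob and 54.4 in WT, a difference of 2.97. Of the complement proteases it restrains, 2 of 3 measured on both arrays were higher after scaling, and Masp1 passed background in ob/ob alone, at least 2.03-fold higher. C1s1 had 544 in ob/ob and 67.3 in WT (2.48), C1ra 1130 and 216 (1.85), and Masp2 71.5 and 63.4 (-0.36), with log2 differences in brackets.

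The non-inhibitory members Serpinh1 and Serpinf1 were unlike each other. Serpinh1 (HSP47, the chaperone that procollagen needs in the endoplasmic reticulum, chr7:106493971-106494030) had a signal of 18100 in ob/ob and 10108 in WT, a difference of 0.31 ± 0.20 (error-model SD). Serpinf1 (PEDF, a secreted factor that restrains blood vessel growth) had 359 in ob/ob and 32.4 in WT, a difference of 2.94 or 7.67-fold. For Serpinf1 the other background correction gave 0.57, or 1.34 with quantile normalization. Its second probe had 21.1 in ob/ob and 3.49 in WT, where it did not pass background, at least 1.18-fold higher. Among 7 collagen genes measured on both arrays, clients of Serpinh1, 4 were higher, with a median of 1.85, and 2 more passed background in ob/ob alone. The basement membrane collagens Col4a2 and Col4a1 had differences of 0.02 and 0.39, and the fibrillar collagen Col5a1 1.85.

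Intracellular inhibitors of granzymes and cathepsins, all of clade B, spread on both sides of 0. Of the 9 measured on both arrays 3 were higher and 1 was lower, with a median of 0.16, the value of Serpinb8, whose probe is doubtful as described below. Without it the median of the other 8 was 0.080. The 9 include Serpinb6d, whose older array name Gm11390 kept it out of the rule and which had a signal of 73.7 in ob/ob and 75.8 in WT, a difference of -0.57. Serpinb1a (an inhibitor of neutrophil elastase and cathepsin G, chr13:32934693-32934752) had 3050 in ob/ob and 571 in WT, a difference of 1.88. Serpinb9, which in mouse protects leukocytes from their own granzyme B, had 3350 in ob/ob and 680 in WT, a difference of 1.77. Serpinb6b, which in mouse inhibits granzyme A, had 5810 and 1278, a difference of 1.65. These 3 genes were more than 3-fold brighter in ob/ob after scaling.

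Relatives of Serpinb6b in the Serpinb6 group had differences below 0. Serpinb6a, an intracellular inhibitor of cathepsin G, had 29900 in ob/ob and 32914 in WT, and Serpinb6c 30000 and 33000, both with a difference of -0.67 and read by the near-identical probes printed above. The second Serpinb6c probe had 7140 in ob/ob and 7921 in WT, a difference of -0.68. Serpinb6e had 25.8 in ob/ob and 38.2 in WT, a difference of -1.10 ± 0.27 (error-model SD), the only Serpin measured on both arrays that was at least 2-fold lower in ob/ob. Its probe differs from that of Serpinb6a at 12 of 55 overlapping bases, of which the stretch printed above shows a part. It matches the brighter Serpinb6c probe at 41 of 47 bases and the other at 46 of 56. Whether the dim Serpinb6e signal comes from that gene alone was not tested. Over the settings tried the Serpinb6e difference ran from -1.72 to -0.38.

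Serpinb8, an inhibitor of furin, had a signal of 20100 in ob/ob and 12423 in WT, a difference of 0.16. A stretch of its probe is shown because of its composition, with the longest run of alternating T and G, 14 bases, in capitals.
Serpinb8: tgtgtgtaTGTGTGTGTGTGTGcctctgtg
T and G made up 83.3% of the whole probe (chr1:109504865-109504924). On the array 101 other probes held 12 such bases in a row, and all 101 were measured on both arrays, with a median signal of 29800 in ob/ob and 21700 in WT and a median difference of -0.13. All probes had median signals of 60.7 in ob/ob and 35.6 in WT. The Serpinb8 signal is therefore not taken as a level of that gene's RNA. Without it the clade B median was 0.73, beside 0.45 with it.

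The other clade B members were mostly at background. Serpinb1b had 75.3 in ob/ob and 31.3 in WT, a difference of 0.73, or -0.97 with the other background correction. Serpinb3c, the one measured member of the 9 epithelial clade B genes, was spotted 10 times, with spot signals from 51.7 through a median of 60.1 to 64.3 in ob/ob and from 34.0 through 39.3 to 53.1 in WT. Its difference was -0.02 with an SD of 0.16 between spots, so the arrays differed by less than the spots did after scaling. Its probe matches that of Serpinb3a at 43 of 48 bases, and Serpinb3a stayed near background on both. The 16 clade B genes measured on neither array were Serpinb1c, Serpinb3a, Serpinb3b, Serpinb3d, Serpinb5, Serpinb7, Serpinb9b to Serpinb9g and Serpinb10 to Serpinb13. With 4 clade A genes (Serpina3a, Serpina5, Serpina7 and Serpina12), Serpine2 and Serpine3 they make up the 22 Serpin genes not measured, whose signals ran from 2.38 to 11.4 in ob/ob and from 2.61 to 9.80 in WT. Their RNA was not detectable on these arrays, which does not show that it was absent.

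The proteases of leukocytes that clade B serpins meet were likewise spread. Of 8 measured on both arrays 2 were higher and 1 was lower, with a median of 0.15. The lysosomal cathepsins Ctsl, Ctsb and Ctss had differences of -0.59, -0.36 and 0.81. Gzmb (granzyme B), the target of Serpinb9, had 157 in ob/ob and 4.38 in WT, not well above background there, at least 8.80-fold higher in ob/ob.

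The remaining members, Serpini1 and Serpini2, are known from the nervous system and the pancreas. Serpini1 (neuroserpin, an inhibitor of tissue plasminogen activator) had 62.8 in ob/ob and 26.3 in WT, a difference of 0.72, and 0.05 by its other probe. With the other background correction the Serpini1 difference was -1.14. Serpini2 (pancpin) had 30.4 in ob/ob and 6.29 in WT, not well above background there, at least 1.70-fold higher in ob/ob.

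By clade, 8 of the 15 clade A genes seen on both arrays were higher and 0 lower, with a median of 1.29 and a range of -0.34 to 2.39. Of 10 clade B genes 4 were higher and 1 lower, with a median of 0.45 and a range of -1.10 to 2.90. Of 8 genes of clades C to I 6 were higher and 0 lower, with a median of 2.03 and a range of 0.31 to 2.95. The clades overlapped widely, and the other background correction brought their medians to 0.28, -0.051 and 0.60. With quantile normalization after that correction the medians were 0.54, 0.31 and 1.31.

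**Figure D3:**
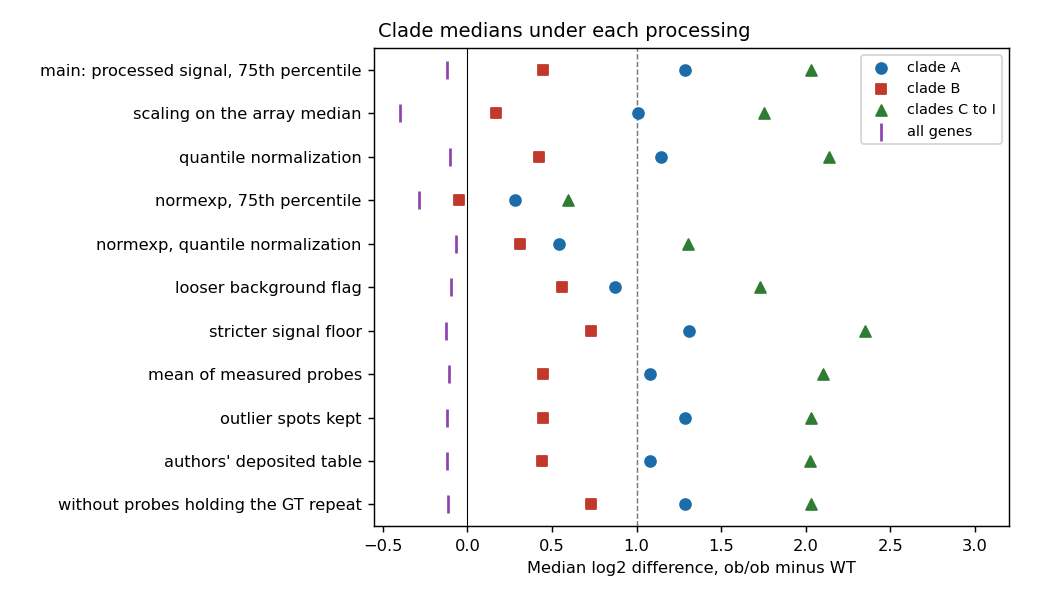
Median log2 difference, ob/ob minus WT, of clade A, clade B, clades C to I and all genes under each of 11 ways of processing the arrays, 1 row each. Clades C to I lie right of clade A and clade A right of all genes in every row, and clade B lies below 0 with normexp and the 75th percentile, at -0.051.

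**Figure D4:**
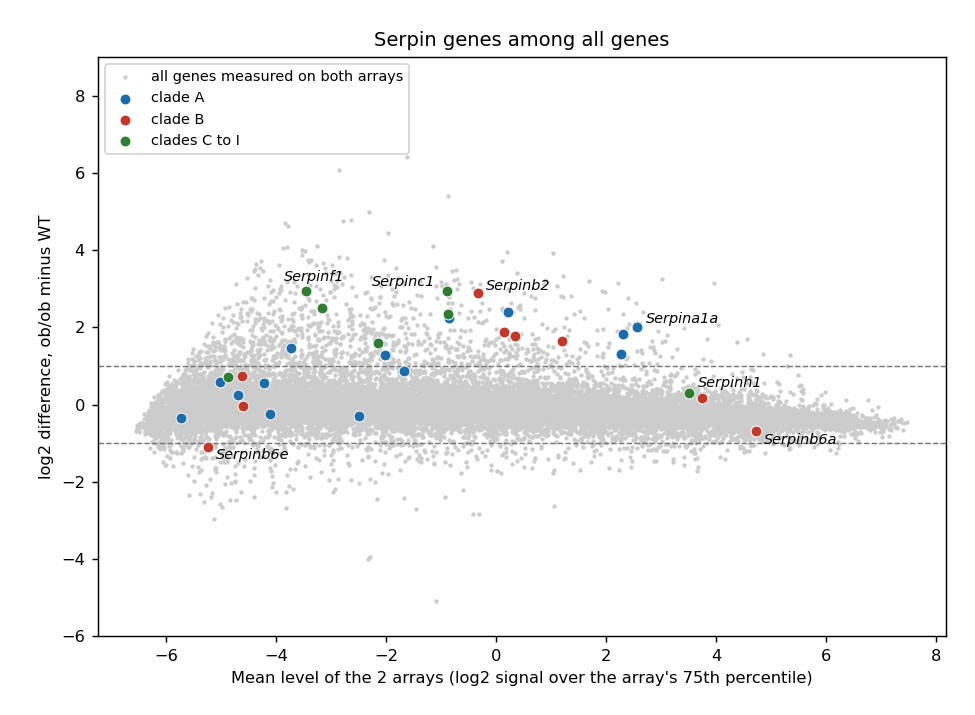
Log2 difference, ob/ob minus WT, against the mean scaled level of both arrays, for all 18143 genes measured on both arrays (grey) and 32 Serpin genes (coloured by clade). Serpina10, at a mean level of -3.72, is the leftmost Serpin gene above the upper 2-fold line, with 9 Serpin genes to its left. Genes measured on 1 array, such as Serpini2, are not drawn. Serpinb6a, far right, lies at -0.67.

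Gene position followed clade. Of the 22 clade A genes 21 lay on chromosome 12 between 104854887 and 105651977 (mm9), and 8 of the 15 measured on both arrays there were higher. Clade B was divided between chromosome 1, where 1 of 3 genes measured on both arrays was higher (Serpinb2), and chromosome 13, where 3 of 7 were higher and 1 was lower. Within the chromosome 12 interval Serpina1f, measured on the WT array only, lay between the higher genes Serpina10 and Serpina1d. Neighbours on chromosome 11, Serpinf1 and Serpinf2, were both higher.

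The sequence before the gene start was read for the members from RefSeq on build GRCm38.p6, 250 bases a promoter, for 48 of the 59 genes, 13 of the 18 higher ones among them. Serpina1a and Serpina1d are shown as examples of the higher copies, and Serpinb2 as the clade B member with the largest difference (the first of its 2 listed starts). Both copies have a probe that matched no probe of another Serpin gene at 35 bases or more. Capitals mark GTTAAT, one arm of the site of the hepatocyte factor HNF1, TTGCNNAA, a core of the C/EBP motif, and TATAAA, the TATA box, on the strand shown.
Serpina1a, chr12:103863620-103863869, minus strand: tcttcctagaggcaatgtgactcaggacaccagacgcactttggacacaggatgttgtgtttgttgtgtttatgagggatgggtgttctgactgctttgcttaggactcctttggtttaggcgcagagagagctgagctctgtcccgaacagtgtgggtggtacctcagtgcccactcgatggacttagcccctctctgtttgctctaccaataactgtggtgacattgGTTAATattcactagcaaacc
Serpina1d, chr12:103773634-103773883, minus strand: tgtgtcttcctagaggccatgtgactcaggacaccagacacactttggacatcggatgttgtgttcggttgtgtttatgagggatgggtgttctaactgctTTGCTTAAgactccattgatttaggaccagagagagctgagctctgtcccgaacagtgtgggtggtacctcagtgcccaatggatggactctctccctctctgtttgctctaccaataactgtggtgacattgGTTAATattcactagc
Serpinb2, chr1:107511173-107511422, plus strand: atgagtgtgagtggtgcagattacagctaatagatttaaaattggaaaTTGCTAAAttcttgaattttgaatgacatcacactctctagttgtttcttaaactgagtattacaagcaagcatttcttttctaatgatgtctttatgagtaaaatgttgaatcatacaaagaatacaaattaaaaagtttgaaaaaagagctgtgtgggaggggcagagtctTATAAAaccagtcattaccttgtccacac
GTTAAT began 21 bases before the start in Serpina1a and 16 bases before it in Serpina1d. TTGCNNAA began 149 bases before the start in Serpina1d and 202 before it in Serpinb2, where TATAAA began 29 bases before the start. The Serpina1a and Serpina1d promoters were identical at 75.5% of 245 bases aligned without gaps, and those of Serpina1a and Serpina1c at 95.5% of 244.

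Each motif was searched on both strands, counted separately and chosen with the sequences in view. GTTAAT stood in 11 of 56 Serpin promoters (19.6%) and in 6.43% of all 32851 promoters of that length. Of the 13 higher genes with a promoter 4 held GTTAAT: Serpina1a, Serpina1c, Serpina1d and Serpina1e. It also stood before Serpina3c, which lay within 2-fold, and before Serpina7, Serpinb3b and Serpinb3d, which were measured on neither array. Serpini2, which passed background in ob/ob alone, and Serpinb8, whose probe is doubtful, held it too. TTGCNNAA stood in 14 of the 56 (25.0%) and in 9.56% of all promoters, and again in 4 of the 13. TATAAA stood in 17 of the 56 (30.4%), in 12.4% of all and in 2 of the 13. Several Serpin promoters are copies of each other, so these counts are not independent, and a match is a run of letters and not a shown binding site.

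Set beside the marker lists, the Serpin groups gave these values. The median of the clotting and fibrinolysis inhibitors was 2.10, and those of the hepatocyte, macrophage and stellate cell lists were 2.83, 1.62 and 2.05, while the endothelial list stood at -0.14. Alb, Fgb and Ahsg, which like most clade A serpins are plasma proteins of hepatocytes, had differences of 3.15, 2.53 and 1.93. The 11 hepatocyte markers ranged from 0.16 to 3.79. The macrophage genes Marco and Cd5l, whose signals were 90900 and 65000 in ob/ob and 25777 and 18181 in WT, had differences of 1.29 and 1.31, and the stellate cell gene Dcn 2.05. The 12 macrophage markers ranged from 0.38 to 4.63, and the 10 stellate cell and fibroblast markers seen on both arrays from 0.13 to 2.92. Which cells the Serpin RNA came from was not measured.

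**Figure D5:**
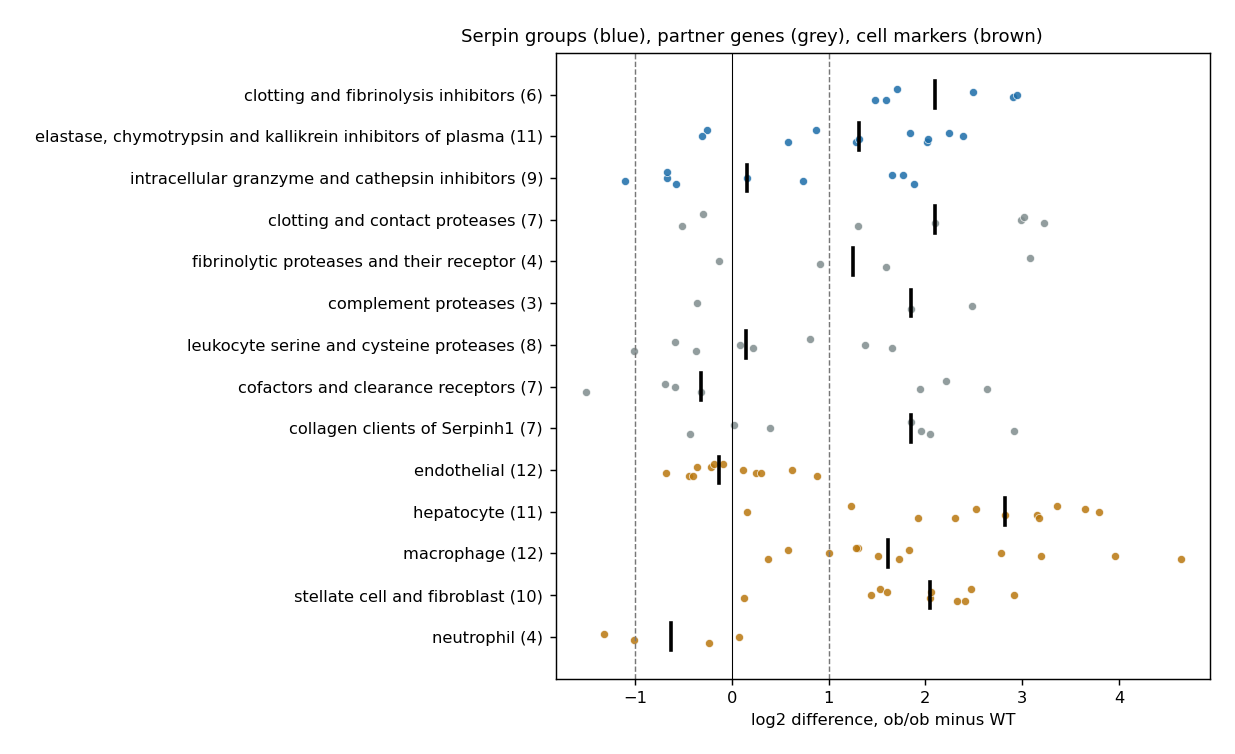
Log2 difference, ob/ob minus WT, of each gene measured on both arrays, by list, with the number of such genes in brackets and the list's median as a black bar. Serpin groups are blue, partner genes grey and cell markers brown; dashed lines mark 2-fold, and the endothelial list lies within them.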

How the data were processed

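Total RNA of LSEC was measured on 1-colour Agilent arrays (probe coordinates on mm9), 1 array per genotype. Per the file headers, the deposited spot intensity is Agilent Feature Extraction 11.0.1.1 output with background subtracted and spatial trends removed, not scaled between arrays. The value table deposited by the authors has 24868 features, each a ratio. Set against the scanner files, that ratio is the processed intensity over the array's 75th percentile, linear and not centred per gene, with column medians of 0.648 for ob/ob and 0.614 for WT. Spot flags for background, saturation and outliers are, per the file headers, values of 0 or 1 (unit: other).

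From these, the log2 ratio of each processed intensity to its array's 75th percentile (non-control spots) was computed in Python 3.11.15 with pandas 2.3.3. Outlier spots (236) were left out, spots of a probe averaged, and a gene taken at its probe with the highest mean. A probe was measured where over 50% of its spots were well above background, a flag set for 64.8% of spots in ob/ob and 58.6% in WT. A gene measured on 1 array has a bound, its scaled signal divided by either the dimmest measured signal of the other array or its own signal there, whichever is higher. Of the probes, 26049 were named through accessions in a RefSeq table of GRCm38.p6, 8658 by the array file, and 4722 have no name; 56 names differ between the files and were taken from the WT file. No Serpin spot was flagged or saturated. No test was run, since no replicate exists; the counting was tested on simulated data. The normexp alternatives used limma 3.58.1 in R 4.3.3.

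Every Serpin gene measured on at least 1 array is named with its values, except 1 that is counted but not reported here; genes outside the family are at most 3 of each list, the brightest on average, plus Agt, Serpinb6d and, named after their values were seen, Masp1, Gzmb and the neutrophil and lymphocyte markers given, and unmeasured markers are named without values. The members, lists, motifs and this rule were chosen with earlier results of these data known. Probe and promoter sequences come from the array files and from RefSeq.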

Additional observations from a re-analysis of the deposited data

How the results depend on the processing

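Each count and median was recomputed under 10 other settings, 1 of them (leaving out probes with a GT repeat) chosen after seeing the data. The count of higher Serpin genes ran from 13 to 20, with 18 as reported, and 13 of the 18 stayed at least 2-fold higher in all settings that gave them a value. Normexp background correction with the 75th percentile gave a family median of 0.50, 0.28 for clade A, a clade B median of -0.051, 0.60 for clades C to I and 7 lower genes; Serpina10, Serpina3f, Serpind1, Serpinf1 and Serpinf2 fell short of 2-fold and Serpina10 reversed to -0.35. Among genes positive but within 2-fold as reported, Serpina11, Serpina3b, Serpina3n, Serpinb1b and Serpini1 turned to -0.95, -1.23, -1.22, -0.97 and -1.14. Serpina3m, Serpinb8 and Serpinh1 stayed positive, at 0.28, 0.39 and 0.45. With quantile normalization after normexp the genes that had turned ran from 0.00076 to 0.19. Over all genes normexp with the 75th percentile called 369 higher and 3817 lower, against 1057 and 415 as reported, with a median of -0.29. Normexp with quantile normalization gave 0.80 for the family, 0.54 for clade A, 1.31 for clades C to I and 0 lower genes. A looser background flag (positive and significant) gave 0.87 for clade A, 4 lower genes, 8 genes measured in ob/ob alone and 1 in WT alone. A stricter signal floor gave 0 lower genes, 4 genes measured in ob/ob alone and 1 in WT alone. The mean of measured probes gave 2 lower genes and 1 gene measured in ob/ob alone. The authors' deposited table also gave 2 lower genes. It holds only features measured on both arrays, so it gives no count of genes measured on 1. Scaling on the array median moved every difference by -0.28 and the median of all genes to -0.40. The cause of these moves was not tested, except that a flag or floor changes which genes count as measured. Genes dimmer than the dimmest measured signal, 11.7 in ob/ob and 12.3 in WT, have only a bound. No paired analysis was possible because each genotype has 1 array. No replicate could be left out for the same reason.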
